A study of Mus musculus with 9 samples.

Results

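The EGF family is a set of growth factor genes and receptor tyrosine kinase genes, and 10 of its genes were described in the epidermis of E18.5 mouse embryos that lacked the epithelial splicing regulators Esrp1 and Esrp2. They were picked by gene symbol from a table of 38203 genes. The members were the receptors Egfr, Erbb2 and Erbb3, the ligands Areg, Ereg, Hbegf, Tgfa, Btc and Epgn, and the feedback inhibitor Errfi1. Each symbol matched 1 gene of the table, and all 10 members passed the filter of an average above 0.1 FPKM in at least 1 genotype. The comparisons ask how the level of each gene differed with the number of working Esrp alleles.

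Poly(A) RNA was sequenced from trunk epidermis, separated from the dermis with trypsin, of individual embryos of 4 genotypes on a mixed C57BL6/129Sv background that had been back-crossed to F4. The 2 WT libraries served as controls. The 3 KO libraries came from Esrp1-/-, Esrp2+/+ embryos, the 2 KH libraries from embryos that lacked Esrp1 and were heterozygous for Esrp2, and the 2 DKO libraries from Esrp1-/-, Esrp2-/- embryos. The alleles were germline alleles, so every tissue of the embryo carried them: exons of Esrp1 that encode the first RNA recognition motif were deleted with a Cre driven by the oocyte promoter Zp3, and Esrp2 was replaced by a LacZ and neomycin cassette. The labels of the control libraries give wild-type Esrp1 and Esrp2, whereas the text on RNA extraction lists control embryos that lack Esrp2. Both control libraries held Esrp2 transcripts at 118 and 136 FPKM, and they are called WT here.

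EGF family ligands are made as membrane-bound precursors that ADAM proteases cut from the cell surface. They bind EGFR or its relatives, the receptors pair and phosphorylate each other, and the Ras, MAP kinase and PI3 kinase chains carry the signal inward. In the epidermis this pathway is known for driving keratinocyte proliferation and migration, for restraining terminal differentiation and for shaping hair follicles, and mice with altered Egfr or Tgfa have wavy hair.

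Epgn was the only member called between DKO and WT, and its average rose 10.8-fold in DKO epidermis. Without DKO replicate 2 its average was 6.57-fold higher and the call was lost. Areg was 2.23-fold and Hbegf 2.57-fold higher in average FPKM, while Btc, the most abundant ligand transcript in WT, stood at 16.7% of its WT average. These last 3 genes did not pass the adjusted threshold against WT. The receptors and Errfi1 had lower averages in DKO than in WT by 1.16-fold to 1.47-fold, and none of them was called. In KO and KH no member was called against WT.

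Epgn, Ereg and Areg sit side by side on chromosome 5 with Btc farther along. The promoters of the 2 that were called in any comparison, Epgn and Areg, and of Btc, the neighbour with the lower average in DKO, are shown here because their average levels in DKO lay on opposite sides of WT, although of these differences from WT only that of Epgn was called. The bases come from RefSeq on GRCm38.p6, the same assembly as mm10, run 5′ to 3′ on the strand of the gene and end at the base before the GENCODE M21 start. Capitals mark the motifs that were found, the core promoter motif TATAAA and the cyclic AMP response element TGACGTCA. Epgn is at chr5:91027267-91027463 on the plus strand, Areg at chr5:91139349-91139598 on the plus strand and Btc at chr5:91402995-91403244 on the minus strand.
Epgn: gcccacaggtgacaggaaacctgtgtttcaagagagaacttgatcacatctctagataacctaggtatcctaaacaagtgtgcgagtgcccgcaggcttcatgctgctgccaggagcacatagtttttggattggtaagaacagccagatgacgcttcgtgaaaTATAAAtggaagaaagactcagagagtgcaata
Areg: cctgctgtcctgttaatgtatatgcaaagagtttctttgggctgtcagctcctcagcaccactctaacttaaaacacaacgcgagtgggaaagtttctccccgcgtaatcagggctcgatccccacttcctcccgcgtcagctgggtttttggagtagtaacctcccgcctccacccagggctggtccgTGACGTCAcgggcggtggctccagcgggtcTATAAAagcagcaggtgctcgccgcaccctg
Btc: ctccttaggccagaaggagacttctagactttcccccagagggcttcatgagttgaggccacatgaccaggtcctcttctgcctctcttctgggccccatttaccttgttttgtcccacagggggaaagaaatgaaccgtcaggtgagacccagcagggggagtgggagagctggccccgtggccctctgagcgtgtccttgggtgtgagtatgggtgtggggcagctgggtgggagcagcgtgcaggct

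The Epgn window holds 197 bases because 53 bases of the RefSeq window lie inside the GENCODE span of the gene. Its TATAAA begins 33 bases before the GENCODE start and 86 bases before the RefSeq start. The Areg window holds TGACGTCA from 61 bases and TATAAA from 31 bases before the start. The Btc window holds neither motif on either strand. Over 250 bases before each of 32851 RefSeq starts and on both strands, TGACGTCA was found in 1.55%, TATAAA in 12.4% and the AP-1 site TGACTCA in 4.46% of windows. RefSeq windows were matched for 7 of the 10 members, with 8 windows in all since Errfi1 has 2. Besides Areg and Epgn, the later of the Errfi1 windows held TGACGTCA from 51 bases and TATAAA from 28 bases before its start. No matched window held TGACTCA. The motifs do not overlap each other in these windows, and a match is a description of letters, not of a bound site.

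The level of each gene is given as FPKM, a fragment count scaled to transcript length and to the mapped fragments of the library, which allows levels to be compared between genes. The values hold no counts, so no counting interval is given. FPKM values summed to between 713318 and 1130713 per library, and 11851 to 12228 genes reached 1 FPKM. Esrp2 was at 0.0843 and 0.0463 FPKM for DKO and at 38.6 to 136 FPKM elsewhere, and Esrp1, whose value also counts the exons left in the deleted allele, at 119 and 142 FPKM for WT and 18.2 to 55.1 FPKM elsewhere. All 7 basal, 6 spinous and 6 granular keratinocyte markers averaged at least 1 FPKM. Summed skeletal muscle markers stayed at or below 0.931 FPKM, with Myod1 at 0 in every library, and summed endothelial markers at or below 0.340 FPKM. Summed dermal fibroblast markers were higher, at 74.8 and 85.5 FPKM for WT and 82.8 to 150 for KO. They were at 50.7 and 139 FPKM for KH and 44.2 and 75.3 for DKO. Summed red blood cell markers ran from 3.79 FPKM in KH to 314 FPKM in DKO. Xist was at 76.2 to 180 FPKM in the 3 KO libraries and at 111 FPKM for WT replicate 2, and at or below 0.178 FPKM in the other 5, so a difference between KO and DKO cannot be told apart from one that goes with Xist. In bulk epidermis, fewer cells of a type and less RNA per cell cannot be told apart either.

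Differences are given as log2 fold changes of FPKM + 1 from 1 limma fit of all 9 libraries, with the standard error (SE) and a p adjusted by Benjamini-Hochberg over the 16897 genes tested. This scale understates the change of genes near 1 FPKM, so ratios of average FPKM are given beside it. A gene was called when the adjusted p was below 0.05 and the averages differed by more than 2-fold. By this rule 0.728% of all tested genes were called between DKO and WT, and 1 of the 10 members. At an unadjusted p below 0.05, 13.8% of all tested genes passed in this comparison, and 4 of the 10 members, namely Epgn, Areg, Btc and Hbegf.

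**Figure D1:**
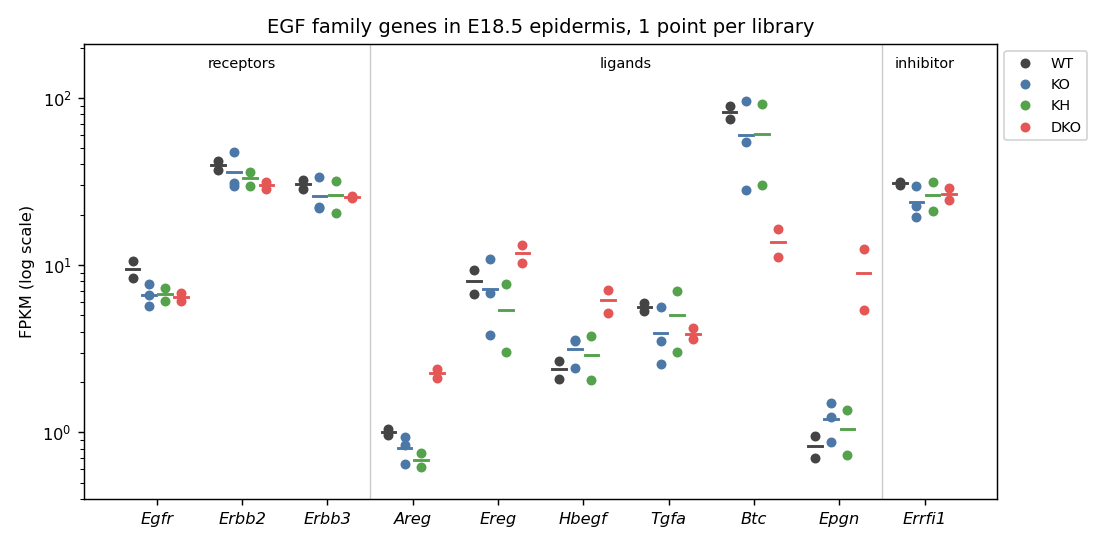
FPKM on a log scale for the 10 genes, with 1 point per library (2 WT, 3 KO, 2 KH and 2 DKO) and a bar at each genotype's mean. The DKO points of Areg, Hbegf and Epgn lie above all other libraries, those of Btc lie below all others, and the receptors and Errfi1 span less than 2-fold over the 9 libraries.

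Among the ligands, Epgn encodes epigen, a ligand of EGFR of low affinity. It was at 0.949 and 0.698 FPKM for WT, at 1.49, 1.23 and 0.874 for KO, at 0.728 and 1.37 for KH and at 5.42 and 12.4 for DKO. Both DKO libraries lay above every other library, and they differed from each other by more than any other libraries of 1 genotype, while the remaining genotypes overlapped. The averages were 0.824 ± 0.177 FPKM for WT (SD, n = 2) and 8.91 ± 4.95 FPKM for DKO (SD, n = 2). The log2 fold change from WT to DKO was 2.35 (SE 0.340, 95% interval 1.58 to 3.12), with a limma adjusted p of 0.0201. Epgn was the lowest of the 10 genes in WT, and in DKO its libraries overlapped those of Ereg and Egfr. The call was lost without WT replicate 1 (adjusted p 0.143), WT replicate 2 (0.251), KO replicate 2 (0.05) or DKO replicate 2 (0.0535, with a log2 fold change of 1.82), when no filter on low values was used (0.0653) and with the replicate number as a block (0.0677), so that it held under 14 of 20 alternatives. With a block for the number in the column names, tried after the data were seen, it was lost too (adjusted p 0.490, log2 fold change 1.57).

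Areg encodes amphiregulin, a ligand by which keratinocytes stimulate their own growth. Its level was 0.967 and 1.05 FPKM for WT, 0.649, 0.934 and 0.835 for KO, 0.618 and 0.750 for KH, and 2.39 and 2.11 for DKO. The DKO libraries were close to each other and above all others, and every KO and KH library was below both WT libraries. Between DKO and WT the log2 fold change was 0.69 (SE 0.147), and the limma adjusted p of 0.0985 missed the threshold. Against KO it was 0.85 (SE 0.134, adjusted p 0.0309), with averages that differed 2.79-fold, and against KH it was 0.95 (SE 0.147, adjusted p 0.0376), with averages that differed 3.29-fold, so Areg was called in both of these comparisons. All these values are near 1 FPKM, where the pseudocount weighs most: with a pseudocount of 0.1 the log2 fold changes were 1.39 against KO and 1.59 against KH, with adjusted p of 0.0941 and 0.102.

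Hbegf encodes heparin-binding EGF-like growth factor, known for its part in the closure of skin wounds. WT libraries had 2.68 and 2.09 FPKM, KO libraries 2.42, 3.56 and 3.50, KH libraries 2.05 and 3.76, and DKO libraries 5.16 and 7.14. Both DKO libraries were above all others, and WT, KO and KH overlapped. The log2 fold change from WT to DKO was 1.07 (SE 0.288, 95% interval 0.41 to 1.72), with a limma adjusted p of 0.170. With the block for the column numbers, where DKO and WT rested on 1 library each, it was 0.21.

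Btc encodes betacellulin, a ligand of EGFR and of ErbB4. Its level was 75.3 and 89.9 FPKM for WT, 28.1, 54.8 and 96.0 for KO, 30.0 and 91.8 for KH, and 16.4 and 11.1 for DKO. The DKO libraries were the lowest of all, and KO and KH were spread so widely that each held a library above the WT level and another far below it. Averages were 82.6 ± 10.3 FPKM for WT (SD, n = 2), 59.6 ± 34.2 for KO (SD, n = 3), 60.9 ± 43.8 for KH (SD, n = 2) and 13.8 ± 3.74 for DKO (SD, n = 2). From WT to DKO the average was 5.99-fold lower, with a log2 fold change of -2.52 (SE 0.606, 95% interval -3.90 to -1.14). With a limma adjusted p of 0.136 it was not called. Of 20 alternatives 17 also left it uncalled. It passed with TPM (limma adjusted p 0.0368), with arrayWeights (0.0235) and in a fit of the WT and DKO libraries alone (0.00589). That last fit gave the same log2 fold change of -2.52 with an SE of 0.233. It has 2 residual degrees of freedom and called 400 genes in all, beside 123, and the cause was not tested.

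Ereg encodes epiregulin, which binds EGFR and ErbB4. It was measured at 9.33 and 6.76 FPKM for WT, 3.80, 6.85 and 10.8 for KO, 3.02 and 7.72 for KH, and 10.3 and 13.3 for DKO. DKO lay above WT and KH but overlapped KO. The log2 fold change from WT to DKO was 0.50 (SE 0.470, 95% interval -0.57 to 1.57), with a limma adjusted p of 0.647. With the block for the column numbers it was -0.79 (adjusted p 0.571).

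Tgfa encodes transforming growth factor alpha. Values were 5.94 and 5.31 FPKM for WT, 2.58, 3.50 and 5.65 for KO, 3.03 and 7.01 for KH, and 3.60 and 4.18 for DKO. Both DKO libraries were below both WT libraries and within the range of KO and KH. Its log2 fold change from WT to DKO was -0.44 (SE 0.377, 95% interval -1.30 to 0.42), with a limma adjusted p of 0.616.

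The 6 ligand transcripts together came to 95.1 and 106 FPKM for WT, 39.0, 70.8 and 118 for KO, 39.4 and 112 for KH, and 43.3 and 50.2 for DKO. The sums in DKO were below both WT libraries and inside the range of KO and KH. Btc made up 79.1% and 85.0% of the sum in WT, 71.99% to 81.6% for KO, 76.0% and 81.7% for KH, and 38.0% and 22.2% for DKO. KO replicate 1 and KH replicate 1, whose sums were below those of DKO, had Btc shares of 71.99% and 76.0%. Without Btc, the other ligands summed to 19.9 and 15.9 FPKM for WT, 10.9 to 21.7 for KO, 9.44 and 20.6 for KH, and 26.8 and 39.1 for DKO, where Ereg gave 23.7% and 26.4% and Epgn 12.5% and 24.7% of all ligand transcripts. These sums are descriptions of FPKM, and no test was run on them.

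**Figure D2:**
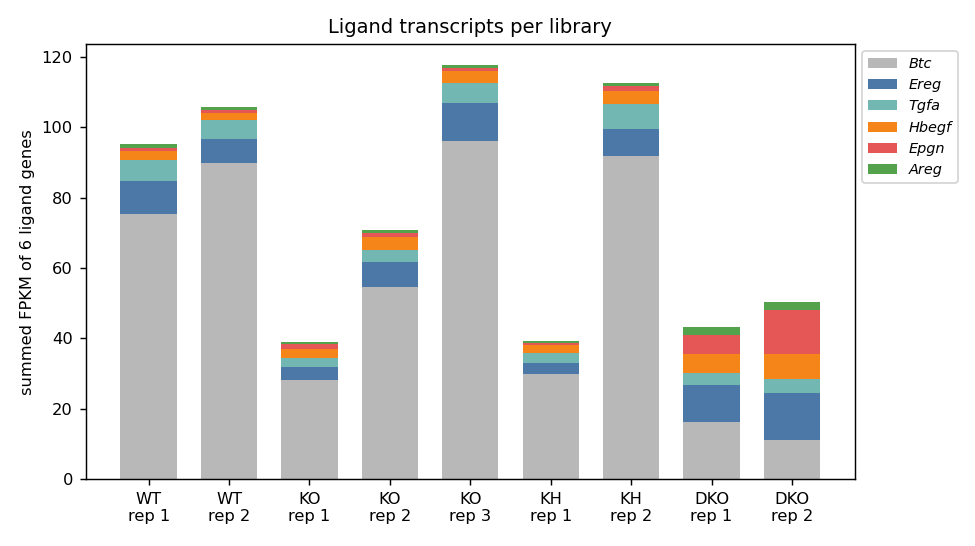
Summed FPKM of the 6 ligand genes in each of the 9 libraries, as stacked bars from 0 with 1 colour per gene. Btc is the tallest piece in all WT, KO and KH libraries (71.99% to 85.0% of the bar) and gives 38.0% and 22.2% for DKO, where the pieces of Epgn, Hbegf and Areg are larger.

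Egfr encodes the receptor that all 6 of these ligands bind. Its level was 8.41 and 10.5 FPKM for WT, 6.59, 5.66 and 7.72 for KO, 6.08 and 7.28 for KH, and 6.08 and 6.79 for DKO. Every library without Esrp1 was below both WT libraries, and the 3 mutant genotypes overlapped, at 70.3%, 70.6% and 68.0% of the WT average in KO, KH and DKO. The log2 fold changes from WT were -0.45 (SE 0.206) in KO, -0.44 (SE 0.226) in KH and -0.49 (SE 0.226) in DKO, and the limma adjusted p were 0.853, 0.980 and 0.387. These 3 comparisons share the 2 WT libraries. The share of all tested genes with every library without Esrp1 below WT was not computed. The entry E230015J15Rik shares the locus of Egfr in the table.

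Erbb2 encodes a receptor with no known ligand of its own that pairs with the other members of the family. It was the most abundant receptor transcript, at 36.9 and 42.1 FPKM for WT, 29.7, 31.0 and 47.7 for KO, 29.9 and 36.1 for KH, and 31.4 and 28.6 for DKO. DKO and KH were below WT, and KO overlapped WT through replicate 3. From WT to DKO the log2 fold change was -0.38 (SE 0.254, 95% interval -0.96 to 0.20), with a limma adjusted p of 0.523. The Erbb2 locus is shared with the entries Mien1, Gm12352 and U6.

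Erbb3 encodes a receptor with a weak kinase that binds neuregulins. Its libraries held 28.5 and 32.3 FPKM for WT, 21.8, 22.4 and 33.5 for KO, 20.5 and 31.9 for KH, and 25.0 and 26.0 for DKO. Only DKO was clear of WT, with both libraries below it. Here the log2 fold change was -0.24 (SE 0.276, 95% interval -0.87 to 0.39), with a limma adjusted p of 0.713. Over the 9 libraries the 3 receptors summed to 56.4 to 88.9 FPKM, of which Erbb2 gave 46.6% to 53.6%, Erbb3 36.3% to 42.3% and Egfr 8.68% to 12.4%, so the order of the receptors was the same in every library.

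Errfi1 encodes MIG6, which the pathway induces and which binds and inhibits the EGFR kinase. It stood at 30.3 and 31.4 FPKM for WT, 19.3, 22.7 and 29.6 for KO, 21.2 and 31.2 for KH, and 28.9 and 24.4 for DKO. KO and DKO were below both WT libraries, and KH overlapped WT. From WT to DKO the log2 fold change was -0.21 (SE 0.259, 95% interval -0.80 to 0.38), with a limma adjusted p of 0.736. Its locus is shared with the entries Rps15a-ps3, 1700045H11Rik and Gm13049.

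**Figure D3:**
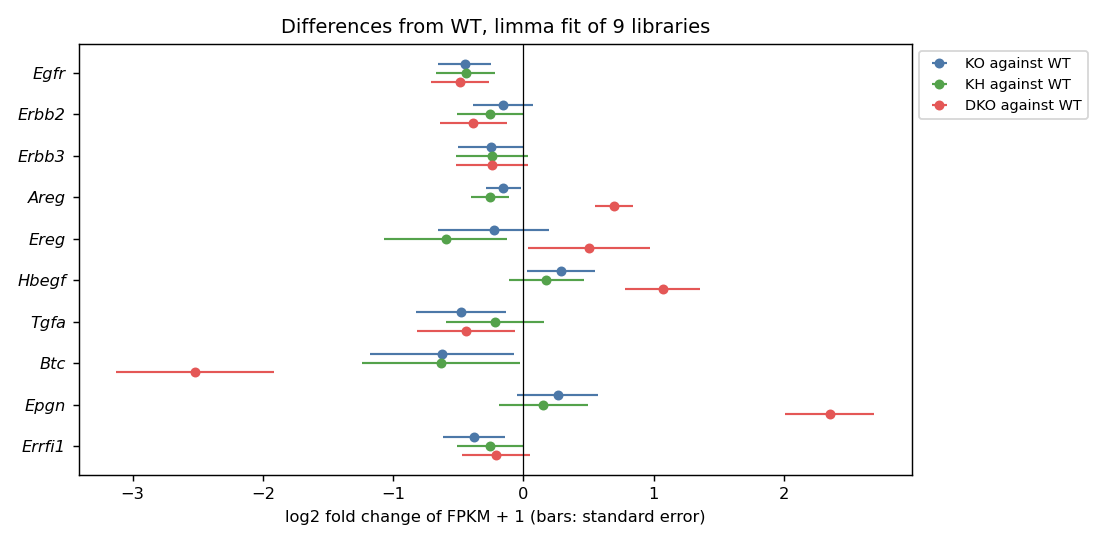
Log2 fold change of FPKM + 1 from WT for each gene in KO, KH and DKO, with bars of 1 standard error from the limma fit of 9 libraries. Epgn at 2.35 and Btc at -2.52 for DKO are the farthest from 0, and the KO and KH points lie between -0.64 and 0.29.

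Ordered by average FPKM for WT, Btc came first, followed by Erbb2, Errfi1, Erbb3, Egfr, Ereg, Tgfa, Hbegf, Areg and Epgn. The neighbours Errfi1 and Erbb3 overlapped, as did Egfr and Ereg, and the others were apart in both libraries. In DKO the order was Erbb2, Errfi1, Erbb3, Btc, Ereg, Epgn, Egfr, Hbegf, Tgfa and Areg, where the neighbours from Erbb2 to Erbb3 overlapped, as did those from Btc to Hbegf. In KO and KH Btc, Erbb2, Erbb3 and Errfi1 overlapped at the top and Epgn and Areg at the bottom.

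All 10 members had DKO libraries that did not overlap WT, 4 higher (Areg, Ereg, Hbegf and Epgn) and 6 lower. With 2 libraries a side this is a common outcome: of all tested genes 27.8% were higher and 26.4% lower without overlap. The median log2 fold change of the members was -0.23, against 0.02 over all tested genes. In KO, 3 members (Egfr, Areg and Errfi1) lay below WT without overlap and 7 overlapped, where 12.6% of all tested genes were higher and 12.1% lower. In KH, 3 members (Egfr, Erbb2 and Areg) lay below WT, where 15.3% of all tested genes were higher and 16.6% lower. Against the other 7 libraries together, DKO was higher for Areg, Hbegf and Epgn and lower for Btc, where 5.33% of all tested genes were higher and 5.56% lower.

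Loss of Esrp1 alone or with 1 Esrp2 allele gave no call among the members. Between KO and WT 0.0296% of all tested genes were called, and the members' log2 fold changes ran from -0.62 for Btc to 0.29 for Hbegf with limma adjusted p of 0.853 to 0.914. Between KH and WT the share was also 0.0296%, and the members ran from -0.64 for Btc to 0.17 for Hbegf with adjusted p of 0.980 to 0.991. No member had an unadjusted p below 0.05 in either comparison. KH and KO overlapped in all 10 members, where without overlap 3.58% of all tested genes were higher and 3.77% lower in KH. None of the members was called or had an unadjusted p below 0.05, and the share called over all genes was 0%, with 185 genes at an unadjusted p below 0.05.

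Loss of the remaining Esrp2 alleles was compared between DKO and the genotypes that lacked Esrp1 alone or kept 1 Esrp2 allele. Epgn and Areg were called higher in DKO against both. Of 20 alternatives the calls of Epgn held under 9 against KO and 6 against KH, and those of Areg under 8 and 4. Epgn had a log2 fold change of 2.09 against KO (SE 0.310, limma adjusted p 0.0234) and 2.197 against KH (SE 0.340, limma adjusted p 0.0370), with averages that differed 7.43-fold and 8.51-fold. Over all genes 0.639% were called between DKO and KO and 0.426% between DKO and KH. Hbegf had log2 fold changes of 0.78 against KO and 0.89 against KH with adjusted p of 0.470 and 0.554, and Btc of -1.89 and -1.88 with adjusted p of 0.342 and 0.554. Against KH the Btc value was -2.67 without KH replicate 1 and -1.09 without KH replicate 2, and neither was called. For Hbegf, with DKO higher, and Btc, with DKO lower, no library of DKO overlapped either genotype, where without overlap 11.2% of all tested genes were higher and 9.88% lower than KO, and 14.3% higher and 14.5% lower than KH. Both DKO libraries of Epgn, Areg and Hbegf were above all 5 libraries of KO and KH and those of Btc below them, beside 6.21% of all tested genes higher and 6.34% lower. These comparisons share the DKO libraries, and in the 4 libraries of KH and DKO, Xist was at or below 0.178 FPKM. Each of the 4 calls was lost without DKO replicate 2, which left the Epgn log2 fold change at 1.55 against KO and 1.67 against KH and that of Areg at 0.91 and 1.01. They were also lost when any 1 library of WT or KO was left out, without DKO replicate 1 for Areg, without KH replicate 1 for Epgn and, against KH, without KH replicate 2 for Epgn or either KH library for Areg, at adjusted p of up to 0.114 and 0.145 for Epgn and 0.190 and 0.193 for Areg. With all libraries kept, the 4 calls were lost with TPM, with only the 2 genotypes fitted and with the replicate block, at adjusted p of 0.0541, 0.0635 and 0.185 for Epgn and 0.0909, 0.109 and 0.281 for Areg against KO, and of 0.105, 0.371 and 0.132 for Epgn and 0.155, 0.487 and 0.229 for Areg against KH. They were also lost with the block for the column numbers, at adjusted p of 0.546 to 0.673.

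Epgn, Ereg, Areg and Btc form a cluster of 375.5 kb on chromosome 5. In GENCODE M21 on GRCm38 Epgn spans chr5:91027464-91035215, Ereg chr5:91074622-91093646, Areg chr5:91139599-91148432 and Btc chr5:91357261-91402994, the last on the minus strand and the others on the plus strand. Gaps of 39.4, 46.0 and 208.8 kb separate them in that order, and they are the only protein-coding genes among 7 annotated genes of the span. An antisense gene, Gm19610, reaches into the start of Ereg on the opposite strand, and although the libraries were stranded, whether fragments were counted by strand is not given in the sources used here. In DKO the genes from Epgn to Areg had averages above WT and Btc had one below it, and the order of the log2 fold changes, 2.35, 0.50, 0.69 and -2.52, did not run with the distance from Epgn.

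**Figure D4:**
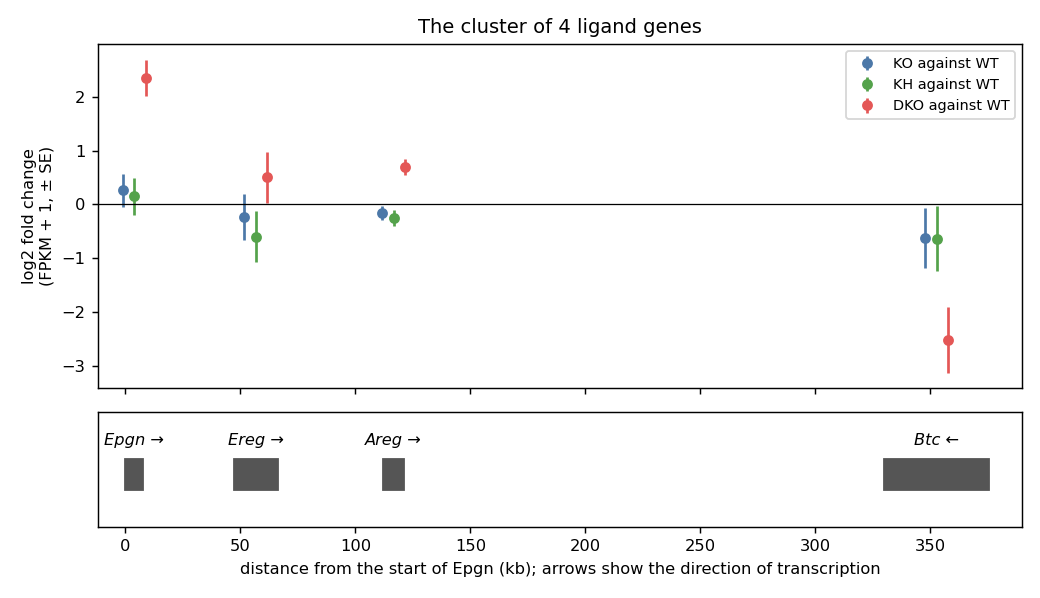
Log2 fold change of FPKM + 1 from WT (± SE) of the 4 ligand genes of the cluster, above a map of their spans in kb from the start of Epgn, with arrows for the direction of transcription. The DKO points of Epgn, Ereg and Areg lie above 0 at 2.35, 0.50 and 0.69, and that of Btc lies at -2.52 beyond the widest gap.

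The other members lie on 5 further chromosomes. Egfr spans 16752203 to 16918158 and Erbb2 98412470 to 98437716 on the plus strand of chromosome 11, Erbb3 128567523 to 128589652 on the minus strand of chromosome 10, Tgfa 86195223 to 86275719 on the plus strand of chromosome 6, Errfi1 150853919 to 150868892 on the plus strand of chromosome 4, and Hbegf 36504927 to 36515805 on the minus strand of chromosome 18.

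Differences among libraries of 1 genotype were large for several ligands. KO replicate 1 and KH replicate 1 held the lowest level of 6 of the 10 members over the 9 libraries (Erbb3, Areg, Ereg, Hbegf, Tgfa and Errfi1), and they also had the lowest FPKM sums, 734747 and 713318. With values rescaled to the same sum in every library (TPM), Btc was called between DKO and WT, and the calls of Epgn and Areg against KO and KH were lost. The part of the FPKM sums in the spread of the members was not tested.

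Summed markers of other cell types and layers were also compared over the genotypes. The 5 melanocyte markers summed to 42.1 and 47.4 FPKM for WT, 66.6 to 82.7 for KO, 55.8 and 148 for KH, and 93.9 and 205 for DKO, and all 5 had higher averages in DKO than in WT without a call. Both DKO sums were above KO and overlapped KH. Immune markers summed to 6.73 and 12.1 FPKM for WT, 9.85 to 19.4 for KO, 8.62 and 27.3 for KH, and 16.6 and 34.2 for DKO, so that DKO overlapped KO and KH. The 6 hair follicle markers, which summed to 390 and 463 FPKM for WT, 363 to 666 for KO, 356 and 612 for KH, and 553 and 632 for DKO, all had higher averages in DKO than in WT, and 1 of them, Krt75, was called. Here too the DKO sums overlapped KO and KH. The 6 spinous markers all had lower averages in DKO than in WT, with a median log2 fold change of -0.78 and none called, and so did all 6 granular markers (median -0.23, none called), while 5 of 7 basal markers had higher averages (median 0.33, none called). The part of these cells and layers in the ligand values was not tested.

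Genes beyond the members were taken from 5 lists of 63 pathway genes, of which 60 passed the filter, and the lists were chosen with results of these data known. Between DKO and WT 1 of the 60 was called, beside 0.728% of all tested genes, and 11 had an unadjusted p below 0.05, beside 13.8% of all tested genes. Between KO and WT and between KH and WT none was called, and 2 had an unadjusted p below 0.05 in each, beside 4.53% and 3.72% of all tested genes.

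Transcripts that ERK signalling induces numbered 12. All 12 had a log2 fold change above 0 between DKO and WT, with a median of 0.37, and 1 was called. In the same direction were 8 of the 12 in KO (median 0.22) and 9 in KH (median 0.31). Over all tested genes the shares above 0 were 52.4% in DKO, 49.5% in KO and 49.7% in KH. These are signs of averages, and single libraries differed. In DKO replicate 1 Etv5 (1.87 FPKM) and Hmga2 (1.05) were below both WT libraries, at 3.08 and 2.55 and at 1.67 and 1.54. For Dusp4 and Dusp5 the DKO libraries overlapped WT. The other genes of the list had both DKO libraries above WT, beside 27.8% of all tested genes. The called gene was Fosl1, which encodes the AP-1 subunit FRA1. Fosl1 was at 0.376 and 0.566 FPKM for WT, 0.145 to 0.410 for KO, 0.0886 and 0.570 for KH, and 2.60 and 2.99 for DKO. Both DKO libraries were above all others, and the log2 fold change from WT was 1.37 (SE 0.192), with a limma adjusted p of 0.0169. No gene of the 5 lists was called without DKO replicate 1, DKO replicate 2, WT replicate 1 or WT replicate 2, or with a pseudocount of 0.1. Etv4, an ETS factor, was at 5.21 and 3.87 FPKM for WT, 5.14 to 14.0 for KO, 5.75 and 12.9 for KH, and 9.52 and 25.7 for DKO, so DKO overlapped KO and KH, and its log2 fold change from WT was 1.61 (SE 0.552, adjusted p 0.260).

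The 16 brakes of receptors and Ras, such as ubiquitin ligases, Sprouty proteins and Ras GTPase activators, had a median log2 fold change of 0.09 between DKO and WT, with 11 above 0 and none called, and 7 were above 0 in KO and 10 in KH. Cbl, a ubiquitin ligase that marks EGFR for breakdown, was at 1.99 and 4.57 FPKM for WT and at 0.941 and 1.42 for DKO, with a log2 fold change of -0.91 (limma adjusted p 0.334). Socs5 had a log2 fold change of 0.45 (adjusted p 0.397).

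Of the 23 genes of the signal chain, 17 had a log2 fold change below 0 between DKO and WT, with a median of -0.26, and none was called. Gab1, a docking protein that passes the signal to PI3 kinase, was at 22.2 and 24.3 FPKM for WT, 14.3 to 21.95 for KO, 14.6 and 15.9 for KH, and 10.9 and 12.1 for DKO. Every library without Esrp1 was below both WT libraries, and the share of all tested genes with this pattern was not computed. The log2 fold change in DKO was -0.96 (SE 0.232, limma adjusted p 0.136). In KO 18 and in KH 19 of the 23 were below 0, with a median of -0.20 in both.

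The 6 sheddases and their partners had a median log2 fold change of -0.33 between DKO and WT with none called. Adam17, the protease that releases Areg, Ereg, Epgn, Hbegf and Tgfa products, was at 20.7 and 24.9 FPKM for WT, 11.3 to 18.3 for KO, 12.4 and 16.1 for KH, and 13.8 and 11.6 for DKO. All 7 libraries without Esrp1 were below WT, a pattern whose share over all tested genes was not computed. The log2 fold changes were -0.65 for KO, -0.65 for KH and -0.80 for DKO, with limma adjusted p of 0.853, 0.980 and 0.242. Adam12 was at 0.758 and 0.849 FPKM for WT and at 0.0992 and 0.0653 for DKO, with a log2 fold change of -0.74 (SE 0.177, adjusted p 0.134).

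Of the other ligands and the remaining receptor of the family, Nrg1, Nrg3 and Erbb4 did not pass the filter on low values. Egf, Nrg2 and Nrg4 were tested and none was called. Nrg2 had a log2 fold change of 0.30 and Nrg4 of -0.37 between DKO and WT, with limma adjusted p of 0.460 and 0.620.

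**Figure D5:**
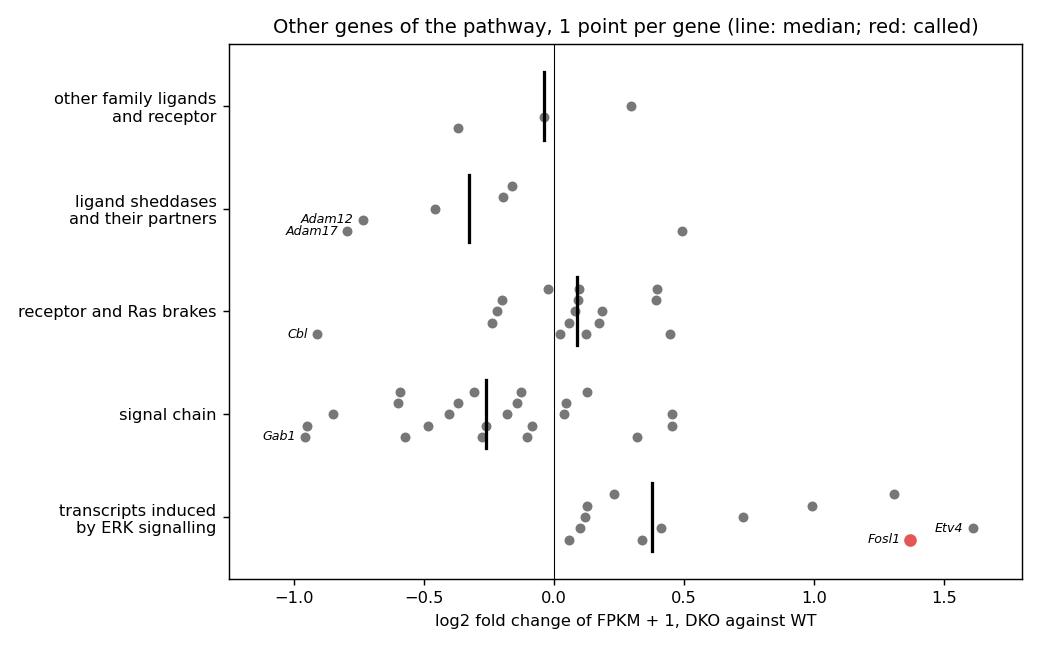
Log2 fold change of FPKM + 1 between DKO and WT for the 60 tested genes of the 5 pathway lists, 1 point per gene, with a line at each list's median and the called gene in red. All 12 ERK-induced transcripts lie above 0 (median 0.37), Fosl1 is the called gene, and the signal chain and the sheddases have medians of -0.26 and -0.33.

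The genes whose pattern over the 9 libraries was most like a member's were found among 12197 genes averaging at least 1 FPKM, by the root mean square difference of log2(FPKM + 1) after centring each gene. For Egfr they were Eml2, Dis3l, Map4k5, Epn2 and Ncoa3, at differences of 0.0596 to 0.0805, beside an SD of Egfr itself of 0.246. For Btc, the member with the largest SD at 1.13, they were Fgf22, Nlrp10, N28178, Hpse and Bbox1, at differences of 0.243 to 0.275. Fgf22, a fibroblast growth factor of the skin, averaged 17.2 FPKM for WT, 12.3 for KO, 11.8 for KH and 1.81 for DKO, and Hpse, which encodes heparanase, averaged 18.0, 15.5, 14.3 and 2.96 FPKM. The points share their libraries, so likeness here is a description without a test.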

How the data were processed

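The authors mapped paired 100-base reads of poly(A) RNA to mm10 and Ensembl release 72 with TopHat 1.4.1 and computed FPKM for each gene and library with Cuffdiff 2.2.0. The deposited FPKM values of 38203 genes in 9 libraries were used as they stand; all columns of single libraries were mapped to samples by their labels. FPKM holds no counts, so no counting error was computed; read totals that the study states were not used here. Each library came from an individual embryo, and the authors' mean columns were not used.

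Genes averaging above 0.1 FPKM in at least 1 genotype (16897) were fitted as log2(FPKM + 1) by limma 3.58.1 (R 4.3.3). The fit had 1 mean per genotype, an intensity trend, 5 residual degrees of freedom and Benjamini-Hochberg adjustment over all tested genes. Calls needed an adjusted p below 0.05 and over 2-fold in average FPKM, which follows the thresholds of the study's methods. On simulated data of the DKO and WT comparison (16897 genes), a log2 change of 1.5 given to 200 genes was recovered in 53.5% beside 7 false calls. A change of 3 was recovered in 92.0% beside 15 false calls. The changed genes were drawn from those averaging above 1 in log2(FPKM + 1). Normal noise was drawn independently for each gene and library, so deviations that genes of a library share were not simulated.

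The members, the 5 pathway lists, the marker lists and the rule for likeness were chosen with earlier results of these data known. All members are named, of each pathway list the called genes and the 2 with the largest absolute change between DKO and WT, except 1 gene of the signal chain that is not reported here, and Krt75 was named after its value was seen. The fibroblast markers summed to 74.8 and 85.5 FPKM in WT and 44.2 and 75.3 in DKO, and the red blood cell markers to 16.3 and 124 FPKM in WT and 80.4 and 314 in DKO. Alternatives were a pseudocount of 0.1, no filter, an average of at least 1 FPKM, fitting just the 2 compared genotypes, no trend, TPM, scaling by median ratios, quantile normalization, arrayWeights, a block for the replicate number or, chosen after seeing the data, for the number in the column names, removal of a transcript length trend by loess (span 0.5), no fold threshold, and leaving out each library. Gene spans came from GENCODE M21 and promoters from RefSeq. Splicing was not analysed here. Tables and plots were made with Python 3.11.15, pandas 2.3.3, numpy 2.4.6, scipy 1.17.1 and matplotlib 3.10.9.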

Additional observations from a re-analysis of the deposited data

Results flagged for a closer look

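The changes of Epgn and Areg from WT were set against each other between genotypes by the limma contrast of DKO with KO or KH, which is the same test as their direct comparison. Against WT itself Epgn was called in DKO alone, and Areg in none of the 3 genotypes (adjusted p 0.0985 in DKO, 0.853 in KO and 0.980 in KH). For Epgn the log2 fold change was 2.09 higher in DKO than in KO (adjusted p 0.0234) and 2.197 higher than in KH (adjusted p 0.0370). For Areg it was 0.85 higher than in KO (adjusted p 0.0309) and 0.95 higher than in KH (adjusted p 0.0376). Both DKO libraries were above all 5 libraries of KO and KH for both genes, as they were for 6.21% of all tested genes. Of 20 alternatives the difference was called under 9 and 6 for Epgn and under 8 and 4 for Areg, against KO and KH in turn. No genotype had 4 libraries, so single libraries were not tested as outliers.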

How the results depend on the processing

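Over 20 alternatives, a later block for column numbers aside, the 10 log2 fold changes between DKO and WT kept their direction, and 189 of these 200 values also kept their side of the threshold. Of 1 member called between DKO and WT, 0 were called with no filter or with the replicate block, 2 (Btc and Epgn) were called with only the 2 genotypes or TPM, 4 (also Areg and Hbegf) with arrayWeights, and 0 to 1 without 1 library. Of 2 called between DKO and KO, 1 was called with a pseudocount of 0.1, no filter or a filter at 1 FPKM, 0 with only the 2 genotypes, TPM or the replicate block, and 0 to 2 without 1 library. Of 2 called between DKO and KH, 1 was called with a pseudocount of 0.1, no filter or a filter at 1 FPKM, 0 with only the 2 genotypes, no trend, TPM, arrayWeights or the replicate block, and 0 to 1 without 1 library. No member was called in KO against WT, KH against WT or KH against KO under any alternative. Of the pathway genes, 1 was called between DKO and WT, 0 with a pseudocount of 0.1, 2 (Adam12 and Fosl1) with only the 2 genotypes, 3 (also Gab1) with arrayWeights, and 0 to 1 without 1 library. With only the 2 genotypes the fit also has fewer degrees of freedom, 2 between DKO and WT; otherwise the cause was not tested. Over all genes 123 were called between DKO and WT (81 higher, 42 lower), 400 with only the 2 genotypes (141 higher, 259 lower), 556 with arrayWeights (250 higher, 306 lower), 132 with a pseudocount of 0.1 (71 higher, 61 lower), 177 after TPM (96 higher, 81 lower) and 67 with the replicate block. Libraries with the same number in their titles correlated at -0.567 to 0.468 in their deviations from the genotype means. In a genotype of 2 libraries these deviations mirror each other, so the pairs are not independent. The values therefore cannot show whether the title numbers pair the samples. The numbers in the column names differ from those of the titles, with none shared by DKO and WT. Libraries that share a column number correlated at -0.23 to 0.543, of which 4 of 6 pairs were above 0.1, with the same limit. With a block for them, chosen after seeing the data, 1 residual degree of freedom was left, DKO and WT rested on 1 library each, and 0 members, 0 pathway genes and 0 of all genes were called in each comparison by limma, with 1637 genes at an unadjusted p below 0.05 between DKO and WT. Signs then turned for Ereg in DKO against WT (-0.79), Hbegf in KO against WT (-0.16) and KH against WT (-0.22), Epgn in KH against WT (-0.021), Tgfa in DKO against KO (-0.13) and Errfi1 in DKO against KH (-0.026), none of them called. Under the other alternatives signs turned only for changes that were not called: between DKO and KO, Egfr with the replicate block (0.063) and Erbb3 with TPM (-0.030) or median ratio scaling (-0.00422); between DKO and KH, Erbb3 with the length correction (0.14) and Errfi1 with TPM (-0.14), where TPM moved the median of all genes to -0.12. Without 1 library, signs turned within -0.54 to 0.11 for Ereg in KO against WT; in KH against WT within -0.55 to 0.068 for Erbb3, -0.15 to 0.49 for Hbegf, -0.72 to 0.28 for Tgfa, -1.43 to 0.16 for Btc, -0.074 to 0.38 for Epgn and -0.52 to 0.014 for Errfi1; in DKO against KO within -0.13 to 0.063 for Egfr, -0.10 to 0.20 for Erbb3 and -0.16 to 0.28 for Tgfa; in DKO against KH within -0.16 to 0.069 for Egfr, -0.26 to 0.0050 for Erbb2, -0.31 to 0.30 for Erbb3, -0.71 to 0.28 for Tgfa and -0.23 to 0.31 for Errfi1. Where 1 library of a genotype remained, its spread was taken from the other genotypes.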
